A study of Mus musculus with 18 samples.

Results

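Hair matrix transcription factors are the nuclear proteins that act in the bulb of a growing hair follicle, where dividing matrix cells give rise to the hair shaft and its inner root sheath. The set comprised 8 genes found by symbol in the deposited table of 55357 genes: the homeobox genes Hoxc13, Msx1, Msx2 and Dlx3, the forkhead genes Foxn1 and Foxq1, the HMG-box gene Lef1 and the zinc-finger gene Gata3. All 8 were found, and all 8 were among the 17667 genes that reached 10 normalized counts in 6 or more libraries, which were the genes tested. RNA came from the back skin of 18 FVB mice aged 6 months, with 1 library per mouse: 6 wild-type mice (WT 1 to 6), 6 mice labelled N-IKKa (7 to 12) and 6 labelled C-IKKa (13 to 18). Both transgenic lines carry exogenous IKKα (the kinase encoded by Chuk), which the labels place in the nucleus of keratinocytes in N-IKKa mice and in their cytoplasm in C-IKKa mice. The labels name no promoter, number of founder lines or litters. The RNA was from whole skin, so fewer cells of a type and less RNA per cell cannot be told apart.

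Hair follicles cycle between growth (anagen), regression and rest (telogen), and the matrix exists only while the hair grows. Wnt signals, read out in the nucleus by Lef1 with β-catenin, and BMP signals, which act on Msx1 and Msx2, direct matrix cells towards the shaft. Hoxc13 and Foxn1 are activators of hair keratin genes, and mice without Foxn1 have hair that breaks off, the nude phenotype. Dlx3 is needed for the shaft and inner root sheath, Gata3 for the inner root sheath, and loss of Foxq1 gives satin hair with a defective medulla. Dlx3 and Gata3 are also made in the interfollicular epidermis, and Lef1 and Gata3 in T cells.

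Libraries were described in 2 sets, the 6 with growing hair (WT 1, WT 4, N-IKKa 8, N-IKKa 9, N-IKKa 11 and C-IKKa 14) and the other 12. This split was made from measured hair keratin genes and not from the labels, so the values below describe it and no test was applied to it. The mean log2(normalized count + 1) over 26 tested genes of the hair shaft and inner root sheath was 9.94 to 12.33 in the growing set and 1.81 to 4.81 in the others. All 6 growing-hair libraries were low for the Y-linked gene Ddx3y, as were 4 of the others (WT 2, WT 5, N-IKKa 10 and C-IKKa 18), and the remaining 8 exceeded a normalized count of 500 and were read as male. Sequencing depth was 11.1 to 15.7 M reads assigned to genes per library, and a listed 0 allows up to 3 counts, or 2.45 to 3.61 normalized counts. Chuk itself did not pass the test, with a log2 fold change of -0.17 (SE 0.09, adjusted p = 0.948) in C-IKKa and -0.02 (adjusted p = 0.969) in N-IKKa against WT. The deposited row does not tell endogenous from exogenous transcripts.

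The promoters of 4 of the genes are shown because 3 of them belong to genes that were high together in the growing-hair set and the fourth, Gata3, to a gene that was not. The windows are RefSeq windows on GRCm38.p6, from 250 bases before to 50 after the annotated start, printed along the gene's strand. Such windows were at hand for 5 of the 8 genes. Capitals mark matches on either strand to the motifs searched: the homeobox core TAATTA, the Msx site core TAATTG, the Lef/Tcf cores CTTTGA and CTTTGT, the GATA cores AGATAA and TGATAA, the forkhead core GTAAACA and the CCAAT box.
Msx2 (chr13:53472731-53473030, minus strand): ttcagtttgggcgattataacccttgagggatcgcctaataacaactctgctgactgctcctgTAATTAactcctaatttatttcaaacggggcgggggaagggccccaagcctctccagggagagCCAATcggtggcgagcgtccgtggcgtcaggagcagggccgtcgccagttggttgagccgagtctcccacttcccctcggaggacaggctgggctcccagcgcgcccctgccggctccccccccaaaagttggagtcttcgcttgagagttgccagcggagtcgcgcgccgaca
Msx1 (chr5:37824536-37824835, minus strand): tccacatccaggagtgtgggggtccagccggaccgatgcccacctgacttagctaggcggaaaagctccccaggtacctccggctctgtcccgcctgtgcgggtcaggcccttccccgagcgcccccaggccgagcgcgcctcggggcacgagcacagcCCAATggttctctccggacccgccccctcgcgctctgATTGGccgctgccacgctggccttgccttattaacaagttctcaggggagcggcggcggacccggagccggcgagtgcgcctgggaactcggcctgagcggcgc
Foxn1 (chr11:78386559-78386858, minus strand): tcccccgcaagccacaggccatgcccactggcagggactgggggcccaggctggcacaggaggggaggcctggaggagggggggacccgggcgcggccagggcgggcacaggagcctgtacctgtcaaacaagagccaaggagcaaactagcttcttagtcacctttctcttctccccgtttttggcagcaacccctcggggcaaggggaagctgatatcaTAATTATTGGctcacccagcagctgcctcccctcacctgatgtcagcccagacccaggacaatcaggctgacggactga
Gata3 (chr2:9878551-9878850, minus strand): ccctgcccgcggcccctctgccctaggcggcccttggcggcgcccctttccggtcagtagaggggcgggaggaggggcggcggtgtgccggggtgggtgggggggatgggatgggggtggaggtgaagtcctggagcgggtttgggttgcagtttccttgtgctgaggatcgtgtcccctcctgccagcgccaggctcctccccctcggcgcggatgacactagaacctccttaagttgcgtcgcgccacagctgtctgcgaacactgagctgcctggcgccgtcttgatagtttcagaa
The homeobox core TAATTA was present in the Msx2 window, at -187 from the start, and in the Foxn1 window, at -29. It was present in 5.29% of all 32851 windows. The CCAAT box occurred at -124 in Msx2, at -91 and -54 in Msx1 and at -24 in Foxn1, where it overlaps the homeobox core, and in 37.4% of all windows. The Gata3 window held 0 matches to these motifs. Of the 4 Lef1 windows, 3 held no match and the one with the start farthest downstream (chr3:131156044-131156343, plus strand) held 3 Lef/Tcf cores, at -180, -146 and -120, and 2 GATA cores, at -195 and 17. The Lef/Tcf cores CTTTGA and CTTTGT were present in 16.0% and 18.7% of all windows, and the GATA cores AGATAA and TGATAA in 11.2% and 9.05%. The GC content of the windows shown was 61.0% for Msx2, 62.7% for Foxn1, 67.3% for Gata3 and 70.0% for Msx1, against a median of 52.7% over all windows. These are matches of letters in a window and not evidence of binding.

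Hoxc13, Msx2, Dlx3, Lef1, Msx1 and Foxn1 were higher in each of the 6 growing-hair libraries than in any of the other 12, with medians 4.67 to 22.1 times as high. Over all tested genes, 8.45% (1493 of 17667) were higher without overlap and 5.25% (928) were lower without overlap. The medians of the same 6 genes were at least 4-fold apart, as were those of 2.98% of tested genes. Foxq1 was higher at the median but overlapped, and Gata3 was level in both sets. Against the 4 other libraries read as female alone, Foxq1 also separated, giving 7 of 8, beside 13.0% of tested genes.

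**Figure D1:**
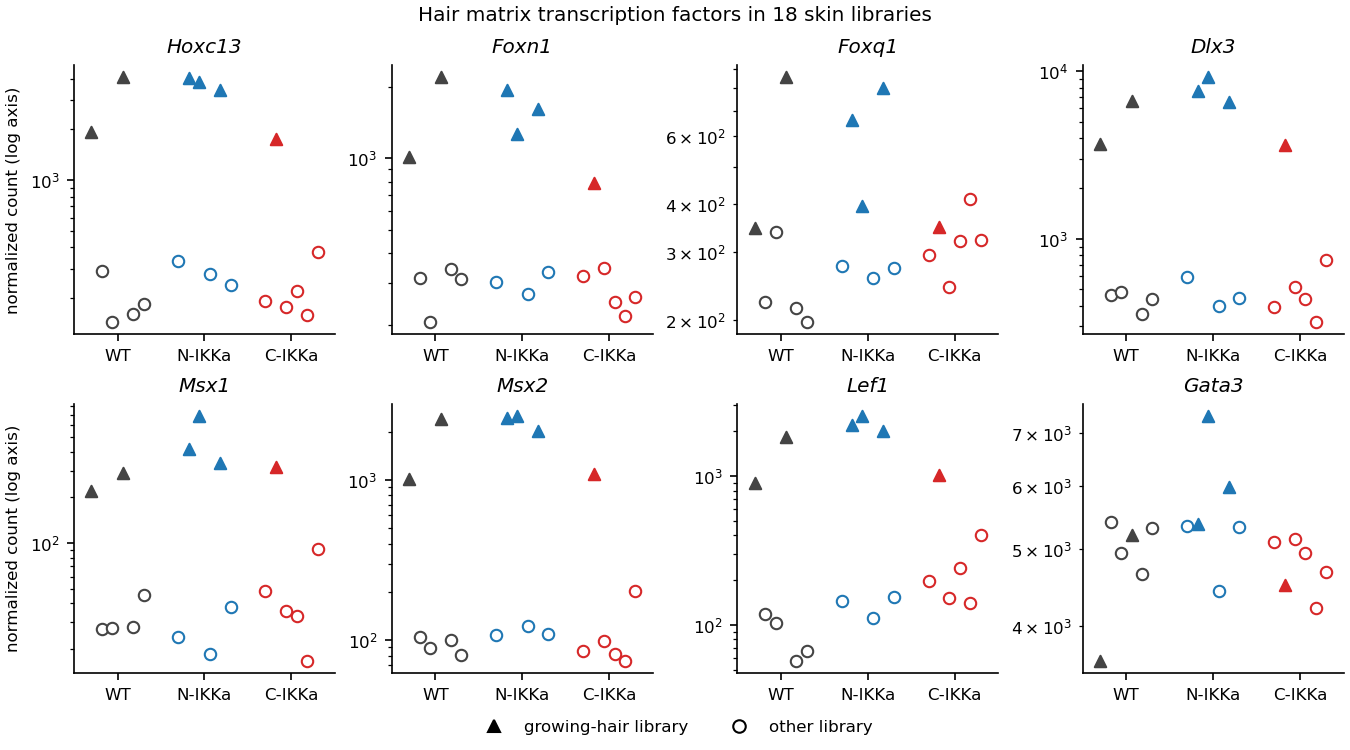
Normalized counts of the 8 genes (log axis) in each of the 18 libraries, coloured by genotype, with growing-hair libraries as filled triangles and the others as open circles. Of the 8 genes, 6 have all triangles above all circles; in Foxq1 the sets overlap, and in Gata3 they lie at the same level.

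Among the homeobox genes, Msx2 had a lowest, median and highest normalized count of 1019, 2210 and 2492 in the growing-hair set and of 74.0, 99.8 and 203 in the others. The median difference on the log2 scale was 4.45, and 1.05% of tested genes had a difference in that direction as large. Hoxc13 had 1762, 3603 and 4057 against 144, 207 and 377, a difference of 4.12. Dlx3 had 3623, 6599 and 9187 against 318, 440 and 750, a difference of 3.90. For these 3 genes the lowest growing-hair library was 4.67 to 5.01 times the highest of the others. Msx1, the paralog of Msx2, had 219, 325 and 683 against 16.6, 30.6 and 91.2, a difference of 3.37. Its gap was narrower, with the lowest growing-hair library 2.40 times the highest other.

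Lef1, the nuclear partner of β-catenin, had a lowest, median and highest normalized count of 906, 1935 and 2524 in the growing-hair set and of 57.3, 142 and 405 in the others. The log2 difference of the medians was 3.75. The other 12 libraries spread 7.07-fold for Lef1, from WT 5 to C-IKKa 18, wider than for any other of the 8 genes. Foxn1, the nude gene, had 791, 1438 and 2183 against 206, 308 and 347, a difference of 2.21. Its level in the other 12 libraries varied by 1.68-fold.

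Foxq1 had a lowest, median and highest normalized count of 347, 528 and 854 in the growing-hair set and of 197, 275 and 412 in the others, a log2 difference of 0.89. The sets overlapped because C-IKKa 17, at 412, exceeded WT 1 at 347, C-IKKa 14 at 349 and N-IKKa 9 at 395. The difference was 0.52 without WT 4 and 1.26 without WT 1. Gata3 had 3613, 5295 and 7346 against 4211, 5022 and 5400, a difference of 0.08. The extremes of Gata3 were both growing-hair libraries, WT 1 at the bottom and N-IKKa 9 at the top. Its level in whole skin did not follow the presence of growing hair, so these values do not single out Gata3 as a hair matrix factor. Gata3 is also made in the interfollicular epidermis and in T cells, so its level within the matrix cannot be read here.

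Levels between genes were compared per kilobase of merged exons in GENCODE vM21, an older annotation than the one the files may use. At the median of the growing-hair set, the normalized count per kilobase was 2531 for Dlx3, 1464 for Hoxc13, 1331 for Gata3, 674 for Msx2, 447 for Foxn1, 220 for Lef1, 109 for Foxq1 and 105 for Msx1. In the other 12 libraries Gata3 led at 1263 per kilobase, ahead of Dlx3 at 169, Foxn1 at 95.9, Hoxc13 at 84.0, Foxq1 at 56.7, Msx2 at 30.4, Lef1 at 16.2 and Msx1 at 9.88. The first places therefore changed from Dlx3 to Gata3 between the sets, and Msx1 was last in both. Foxq1 and Msx1 lay close together in the growing-hair set, within their spread over libraries. The strand setting of the counting is not given in the sources used here, so reads of antisense genes could not be separated: A530084C06Rik covers 66.1% of the Foxq1 exon bases and was listed at 0 in each library, and Gm43352 covers 13.7% of Lef1 and reached at most 9.13.

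The growing-hair libraries differed among themselves. N-IKKa 9 was the highest for Msx1 (683), Msx2 (2492), Dlx3 (9187), Lef1 (2524) and Gata3 (7346). It also had the lowest hair shaft list mean of the growing-hair set (9.94) and the highest mean of the proliferation list (8.89, against 7.78 to 8.55 in the other 5). WT 4 was the highest for Hoxc13 (4057), Foxn1 (2183) and Foxq1 (854) and for the hair shaft list mean (12.33). WT 1 and C-IKKa 14 were the 2 lowest of the growing-hair set for Hoxc13, Foxn1, Msx2, Dlx3, Lef1, Foxq1 and Gata3. The spread within the set was 2.03-fold for Gata3 to 3.12-fold for Msx1.

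Within the 6 growing-hair libraries, Foxn1 and the hair shaft list mean gave a Pearson r of 0.841 (exact permutation p = 0.0403, adjusted p = 0.322 over 32 tests) and a Spearman rho of 0.829 (exact p = 0.0583, adjusted p = 0.333). With the 2 libraries that lay farthest from the median removed, r was 0.939. For Foxq1, r was 0.835 (exact p = 0.0625, adjusted p = 0.333) and rho was 0.714, and r was 0.762 without those 2. For Msx1, r was -0.396 (exact p = 0.449, adjusted p = 0.748) and rho was -0.314 (exact p = 0.564), and r turned to 0.487 without those 2, so the negative value rests on them. Among the other 12, the largest values were r = 0.680 for Msx1 (permutation p = 0.0118, adjusted p = 0.127), which fell to 0.375 without the 2 farthest libraries, and r = 0.678 for Dlx3 (permutation p = 0.0113, adjusted p = 0.127). No relation passed adjustment over the 32 tests (8 genes, 2 sets of libraries, 2 coefficients). The hair shaft list holds the kind of genes that made the split, so its range within each set was limited by that choice. The permutations treated libraries of different genotypes, and of both sexes among the other 12, as exchangeable. The p-values are therefore descriptive. The libraries form separate clusters, so no r over all 18 is given.

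**Figure D2:**
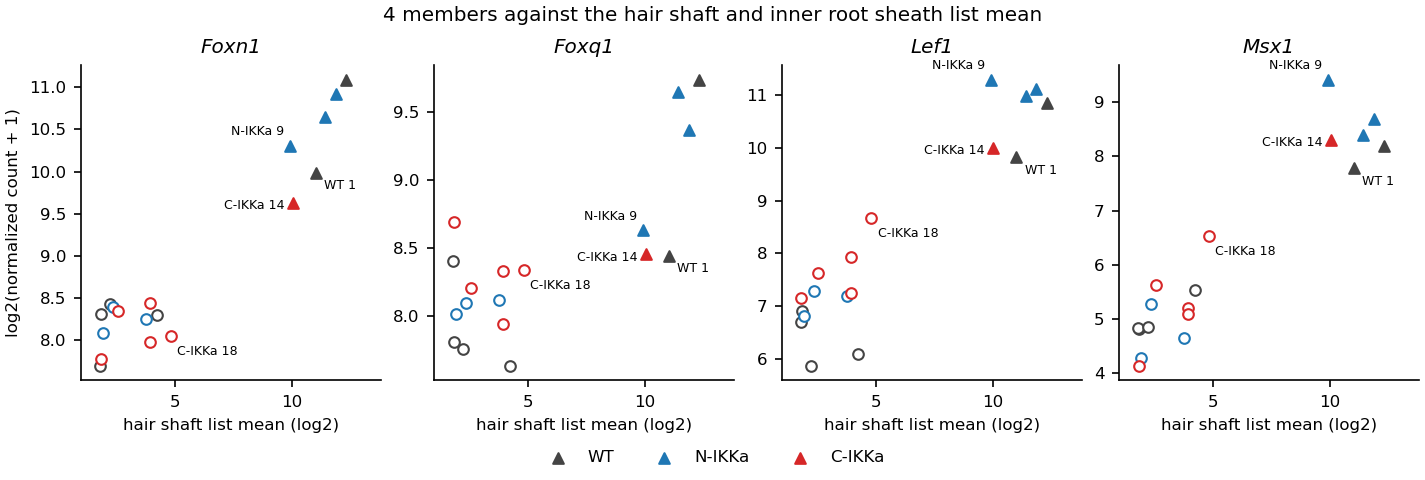
Log2(normalized count + 1) of Foxn1, Foxq1, Lef1 and Msx1 against the mean log2 value of the list of hair shaft and inner root sheath genes, 1 point per library, with growing-hair libraries as filled triangles and the others as open circles. N-IKKa 9, at a list mean of 9.94, is the highest point for Lef1 and Msx1, and C-IKKa 18, at 4.81, is the highest open circle for the same genes.

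Among the other 12 libraries, C-IKKa 18 stood highest for Hoxc13, Msx1, Msx2, Dlx3 and Lef1. Its normalized counts were 377, 91.2, 203, 750 and 405, which were 1.96, 3.25, 2.05, 1.72 and 2.88 times the median of the remaining 11. Foxn1 (263, 0.84 times), Gata3 (4673, 0.92 times) and Foxq1 (322, 1.18 times) were not raised alike. The library also had the highest means of the 12 for the hair shaft list (4.81), the proliferation list (7.38) and the melanocyte list (7.60). In each of these it lay below the growing-hair set. It remained below the whole growing-hair set for the 6 genes that separated.

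The genes with the most similar profiles were found by the root mean square difference of centred log2 values over the 18 libraries, among 12591 named genes with a mean of at least 50. Hoxc13, Dlx3 and Msx2 were each other's neighbours: the difference was 0.28 between Hoxc13 and Dlx3, and 0.30 for both other pairs. Slc7a8, an amino acid transporter, followed for Hoxc13 (0.34) and Msx2 (0.33). The Notch target Heyl was the second neighbour of Dlx3 (0.30) and the nearest of Msx1 (0.46). Lef1 was less closely matched, with Msi1, an RNA-binding protein, at 0.45 and Cntfr, a cytokine receptor, at 0.47. The nearest profiles to Foxn1 were Slc40a1, the iron exporter ferroportin, at 0.24, Fam83c at 0.27 and Slc25a37, a mitochondrial iron carrier, at 0.28. Foxq1 had Magef1 at 0.24 and Cmtm8 and Kalrn at 0.26. Gata3, which varied little, had Ttc3 at 0.10, Tfdp2 at 0.12 and Smg6 at 0.13. The profiles of the 6 separating genes and of their neighbours all carry the split between the 2 sets of libraries.

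Relatives of the 8 genes were given from fixed lists. For these and the lists that follow, the share of all tested genes without overlap was 8.45% higher and 5.25% lower. No list was tested against these shares. Of 17 other homeobox genes of the Hoxc, Msx and Dlx families, 6 were tested, and 2 of them were higher in the growing-hair set without overlap. Dlx4 had medians of 195 and 7.56 (log2 difference 4.52) and Dlx2 of 225 and 10.1 (4.35). Hoxc10 overlapped, with medians of 9.17 and 25.0. Of 21 forkhead and GATA genes, 15 were tested, with 2 higher without overlap and 1 lower. The forkhead gene Foxe1 had a median of 49.8 in the growing-hair set and was at most 2.38 in the others, below the level of 3 counts. Foxe1 passed the filter only through the growing-hair set, so no other outcome than higher without overlap was possible. It is among the 2 counted here and the 13 of the next list. The growing-hair libraries alone meet the filter, so other genes low elsewhere could enter in the same way. Foxm1, a regulator of mitosis, had medians of 520 and 150 (1.77), and Gata1, of the blood lineage, overlapped with 8.83 and 32.1. Among 40 tested genes of 42 other follicle transcription regulators, 13 were higher without overlap and none was lower, led after Foxe1 by Mycn (783 and 48.2, difference 3.99) and Cux1 (7085 and 1340, difference 2.40). The median difference of that list was 0.55, against 3.56 for the 8 genes.

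Lists of the pathways around Lef1 had smaller median differences than Lef1, although single signals exceeded it. Of 21 tested Lef1 partners and Wnt target genes, 8 were higher without overlap and none was lower, with a median log2 difference of 0.46. The corepressor Tle3 had medians of 2998 and 1422 (1.08), the Wnt inhibitor Nkd2 of 2104 and 756 (1.48), and the Wnt deacylase Notum of 19.6 and 3.29 with overlap. Of 32 tested genes for Wnt, BMP, Hedgehog, Fgf and Eda signals and their receptors, 9 were higher without overlap and 2 lower, with a median difference of 0.56. Sonic hedgehog, Shh, made by matrix cells, had a median of 237 in the growing-hair set and of 2.31 in the others, below the level of 3 counts. Bmp8a had 385 and 6.29. Fgf5, a signal that ends growth, had 333 and 15.9 (4.28).

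Most products of the bulb were higher in the growing-hair set. Whether they depend on the 6 separating factors was not tested. All 26 tested hair shaft and inner root sheath genes were higher without overlap, but these genes or their kin defined the split. Of 26 other tested matrix products, 17 were higher without overlap and none was lower, with a median difference of 2.44. Padi3, which deiminates hair proteins, had medians of 5859 and 11.2 (8.88), and Padi1 of 1369 and 4.16 (8.01). Crisp1 overlapped, with 392 and 1.43. Of 24 proliferation genes, 21 were higher without overlap, with a median difference of 1.89. The proliferation marker Mki67 had medians of 5417 and 1253 (2.11), Bub1 of 160 and 29.9 (2.37) and Kif11 of 733 and 142 (2.36).

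**Figure D3:**
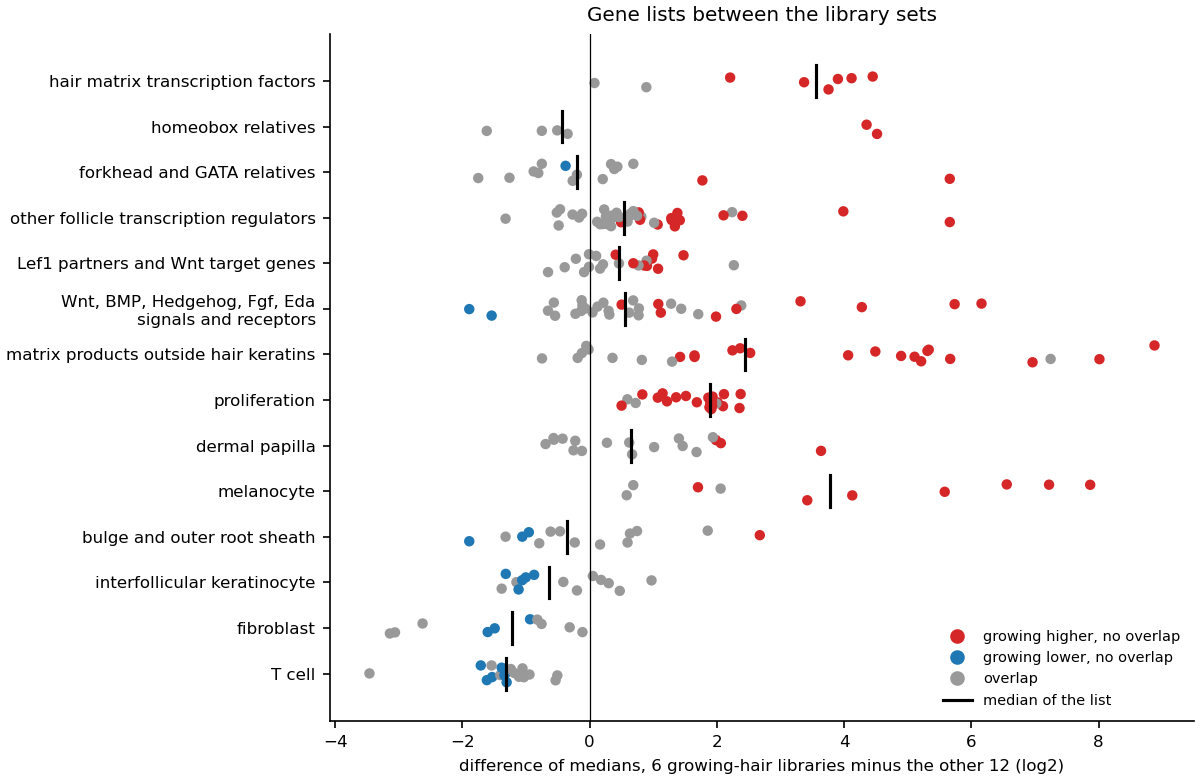
Difference of medians of log2(normalized count + 1), growing-hair libraries minus the other 12, for each tested gene of the lists shown (points), with the list median as a line. Melanocyte and matrix product genes lie with the 8 genes on the higher side (list medians 3.77 and 2.44), and T cell and fibroblast genes on the lower side (-1.31 and -1.21).

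Markers of other cell types also differed between the sets, and their part in the values of the 8 genes was not tested. Over all tested genes, 8.45% were higher and 5.25% lower without overlap. Of 18 tested T cell genes, 7 were lower without overlap and none was higher. The T cell list mean was 4.72 to 5.65 in the growing-hair set and 5.83 to 6.71 in the others, so Lef1 and the T cell list moved in opposite directions. Of 10 melanocyte genes, 7 were higher without overlap, with list means of 8.71 to 10.12 and 5.28 to 7.60. Of 18 dermal papilla genes, 3 were higher without overlap (Corin 3.64, Hhip 2.06 and Wnt5a 1.99, differences of log2 medians) and none was lower. The list was mixed, with a median difference of 0.64 and a higher median in the growing-hair set for 11 of the 18. The rest were lower with overlap, among them Prom1 (-0.69), Rspo3 (-0.57) and Nog (-0.56). The dermal papilla list means were 7.79 to 8.59 and 7.17 to 7.74. Of 14 interfollicular keratinocyte genes, 5 were lower without overlap, with list means of 12.12 to 12.85 and 12.66 to 13.18. Fibroblast genes were lower without overlap in 3 of 10, and bulge and outer root sheath genes were higher in 1 and lower in 3 of 14. Macrophage, sebaceous, muscle and adipocyte genes showed no gene without overlap in either direction, with median differences of -1.24, -0.75, -0.85 and -0.96.

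The question the genotypes address is whether exogenous IKKα in either compartment of keratinocytes alters skin transcription. None of the 8 genes passed the test in any of the 3 contrasts (limma, adjusted p below 0.05). Over all tested genes, 0.345% passed for C-IKKa against WT, 0.00566% for N-IKKa against WT and 0.430% for N-IKKa against C-IKKa. Among the 8, no adjusted p was below 0.441. Unadjusted p below 0.05 was met by 1012, 731 and 2059 genes, and by none of the 8. edgeR called 55, 1 and 60 genes and DESeq2 151, 2 and 188, again with none of the 8. Growing hair was present in 2 of the WT, 3 of the N-IKKa and 1 of the C-IKKa libraries. The ranges of the genotypes overlapped for all 8 genes in all 3 contrasts. For the 6 genes that separated the growing-hair set this was fixed in advance, because each genotype holds libraries of both sets. Only for Foxq1 and Gata3 was the outcome open. Over all tested genes, 0.985%, 0.125% and 1.05% did not overlap.

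Hoxc13, for which the split fixed the overlap, is given by genotype as an example. Its lowest, median and highest normalized counts were 144, 238 and 4057 in WT, 241, 1868 and 4016 in N-IKKa and 160, 207 and 1762 in C-IKKa. Fold changes on the log2 scale were 1.14 (SE 0.98, adjusted p = 0.880) for N-IKKa against WT and -0.60 (SE 0.98, adjusted p = 0.985) for C-IKKa against WT. The 95% intervals were -0.91 to 3.19 and -2.65 to 1.45, so both intervals hold increases and decreases. Both contrasts use the same WT libraries. For N-IKKa against WT the 8 log2 fold changes were all above 0, from 0.21 for Gata3 to 1.41 (SE 0.99) for Lef1, with a median of 0.88 beside 0.01 over all tested genes. For C-IKKa against WT they ran from -0.67 (SE 1.08) for Msx2 to 0.40 (SE 0.99) for Lef1, with a median of -0.38 beside 0.00 over all tested genes. For N-IKKa against C-IKKa they ran from 0.23 for Gata3 to 1.76 (SE 1.08) for Msx2, with a median of 1.04. The genotypes hold unequal numbers of growing-hair libraries, as given above. Without those libraries, N-IKKa against WT ran from -0.28 for Msx1 to 0.70 for Lef1. C-IKKa against WT then ran from -0.08 for Gata3 to 1.33 for Lef1, and N-IKKa against C-IKKa from -0.63 for Lef1 to 0.39 for Hoxc13.

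Gata3 had the narrowest error, an SE of 0.11 in each contrast. Its log2 fold change was 0.21 for N-IKKa against WT (95% interval -0.03 to 0.45, adjusted p = 0.880) and -0.02 for C-IKKa against WT (-0.26 to 0.22, adjusted p = 0.995). Foxq1 gave 0.35 (SE 0.34, adjusted p = 0.880) and 0.03 (SE 0.34, adjusted p = 0.998). With the growing-hair set as a term in the model, an alternative chosen after the data were seen, the SE was 0.35 or less for each gene, about unchanged for Gata3, and again none of the 8 passed, beside 0.821%, 0.00566% and 0.696% of tested genes for C-IKKa against WT, N-IKKa against WT and N-IKKa against C-IKKa. The largest value was then that of Lef1 for C-IKKa against WT, 0.998 (SE 0.30, 95% interval 0.36 to 1.64, unadjusted p = 0.00412, adjusted p = 0.213). For N-IKKa against WT, Hoxc13 was 0.54 (SE 0.23, unadjusted p = 0.0283, adjusted p = 0.798) and Lef1 was 0.81 (SE 0.30, unadjusted p = 0.0162, adjusted p = 0.798). With the hair shaft list mean as the covariate instead (limma), none of the 8 passed either. The smallest unadjusted p was then that of Hoxc13 for N-IKKa against C-IKKa, at 0.74 (95% interval 0.27 to 1.22, unadjusted p = 0.00418, adjusted p = 0.175).

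**Figure D4:**
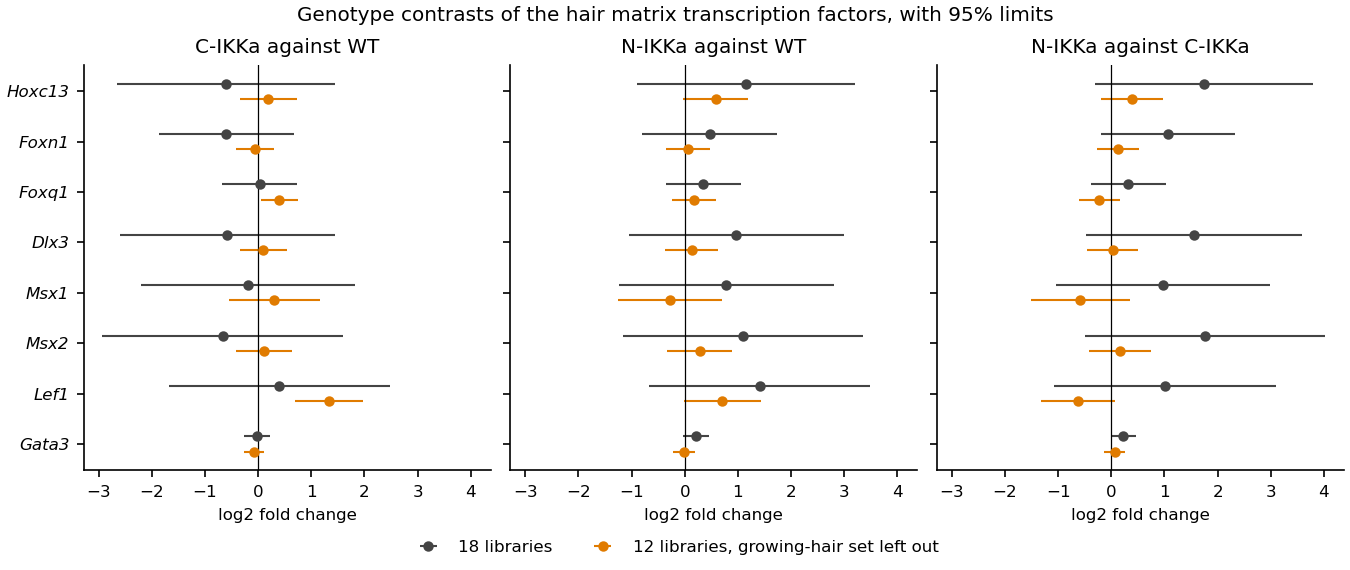
Log2 fold changes of the 8 genes with 95% intervals for the genotype contrasts, over all 18 libraries and without the 6 growing-hair libraries. Over all libraries the intervals include 0 for all 8 genes; without the growing-hair set those of Lef1 (0.70 to 1.97) and Foxq1 (0.04 to 0.76) for C-IKKa against WT lie above 0.

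Among the other 12 libraries (4 WT, 3 N-IKKa and 5 C-IKKa), Lef1 differed most by genotype. The normalized counts were 119, 102, 57.3 and 67.4 in WT 2, 3, 5 and 6, were 144, 112 and 155 in N-IKKa 7, 10 and 12, and were 197, 151, 243, 141 and 405 in C-IKKa 13, 15, 16, 17 and 18. Each of the 5 C-IKKa libraries was above each of the 4 WT libraries, as for 2.54% of tested genes, while 1.40% were lower without overlap. The log2 fold change was 1.33 (SE 0.30, 95% interval 0.70 to 1.97), with an unadjusted p of 0.000519 and an adjusted p of 0.0521 (limma), and 0.923% of tested genes passed in this fit. Lef1 thus missed the threshold. These libraries were selected by measured hair genes, with which Lef1 varies, so the value is a description of what remains rather than an independent test.

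The Lef1 value kept its sign in each fit of those libraries, and its side of the threshold varied. It was 1.10 (adjusted p = 0.0845) without C-IKKa 18, 1.09 (adjusted p = 0.159) in the libraries read as male alone and 1.41 (adjusted p = 0.0365) with sex as a covariate. Leaving out WT 2 gave 1.51 (adjusted p = 0.0492) and leaving out C-IKKa 15 gave 1.45 (adjusted p = 0.0252), and the other single omissions gave 1.10 to 1.48 with an adjusted p of 0.0658 to 0.184. With the T cell list mean as a covariate it was 1.10 (adjusted p = 0.661), and with the hair shaft list mean 1.22 (adjusted p = 0.147). The T cell list means were 5.83 to 6.37 in these WT libraries and 6.01 to 6.71 in the C-IKKa libraries. Over all 18 libraries Lef1 stood at 0.40 (SE 0.99, adjusted p = 0.989), and edgeR and DESeq2 gave -0.51 and -0.52 there.

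The other 7 genes did not separate C-IKKa from WT in those 12 libraries. Foxq1 came next, at 0.40 (SE 0.17, 95% interval 0.04 to 0.76, adjusted p = 0.336), with values of 223, 338, 215 and 197 in WT and of 295, 244, 321, 412 and 322 in C-IKKa, which overlap. For N-IKKa against WT, Msx2 was the single gene of the 8 without overlap, with 108, 123 and 110 against 105, 89.3, 101 and 80.6. Its log2 fold change was 0.28 (SE 0.28, adjusted p = 0.895), and 2.93% of tested genes were higher and 4.14% lower without overlap. In these 12 libraries 0.0113% of tested genes passed the test for N-IKKa against WT and 0.289% for N-IKKa against C-IKKa, with none of the 8 among them. There, Hoxc13 stood at 0.58 (SE 0.28, adjusted p = 0.739) and Lef1 at 0.70 (SE 0.34, adjusted p = 0.730).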

How the data were processed

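Per the labels, RNA of back skin was extracted with TRIzol and RNeasy MinElute, and stranded mRNA libraries were sequenced in pairs on a NovaSeq. Counting was done with featureCounts on GRCm39, per the submitters' processing notes. The aligner, annotation, versions and scaling tool are not given in the sources used here. Each deposited signal is a normalized count per gene and library. Divided by a step found for each library, 100% of the values above 0 came out whole to within 0.001 reads, so reads were recovered for the count models, which were run as alternatives. An automated check of this recovery did not accept WT 1 and WT 2, whose step lies close to 1; their reads were used all the same.

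Values were analysed as log2(normalized count + 1). A fold change is the difference of 2 group means on this scale, which understates changes of low genes. limma 3.58.1 (R 4.3.3; empirical Bayes with trend) fitted 1 mean per genotype over 18 libraries, with 15 residual degrees of freedom, and two-sided p-values were adjusted by Benjamini-Hochberg within each contrast. The labels name separate mice. No 2 libraries were copies (smallest chi-square per gene 5.61 over 153 pairs). edgeR 4.0.16 and DESeq2 1.42.0 used recovered reads. Other alternatives were the pseudocount (0.5 and 5), the filter (none and 50), TMM, median-of-ratios and quantile scaling, covariates, single omissions and omission of the growing-hair set. Only the limma fit was run on simulated data, with known shifts in C-IKKa, a capped spread and no split by growing hair. That simulation does not cover the edgeR, DESeq2 or covariate fits, nor the spread of the 8 genes. The named genes were the 8 genes, Chuk, the 3 genes of a list with the largest difference of medians and the 3 nearest profiles per gene. The genes and lists were chosen with earlier results of these data known.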

Additional observations from a re-analysis of the deposited data

Results flagged for a closer look

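Of 24 groups (8 genes in 3 genotypes, on the log2 scale), 5 had 1 library far from the other 5 by Dixon's criterion. Chance flags about 1 group in 20. The 24 groups share libraries, so the number of flags was not tested against this rate. C-IKKa 14 stood above the other C-IKKa libraries in Hoxc13 (normalized count 1762), Foxn1 (791), Msx2 (1089) and Dlx3 (3623). It is the single C-IKKa library of the growing-hair set. WT 1 stood below the other WT libraries in Gata3 (3613).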

How the results depend on the processing

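None of the 8 genes was called in any of the 3 contrasts under any alternative to the tests over all 18 libraries, nor in the plain fit of the other 12. Lef1 was called in some further fits of those 12, which were added after the data were seen and are given below. No paired analysis was possible because the replicate numbers of the 3 genotypes do not overlap. The signs of uncalled fold changes were less stable. For C-IKKa against WT, with sex as a covariate, Hoxc13 was 0.19, Msx1 0.52, Msx2 0.22 and Dlx3 0.14. Without the growing-hair set these were 0.19, 0.30, 0.11 and 0.10, and with that set as a term 0.0048, 0.39, 0.0026 and 0.022. Msx1 was 0.24 with the hair shaft covariate. Lef1 was -0.51 by edgeR and -0.52 by DESeq2, Foxq1 was -0.16 by both, and Gata3 was 0.081 after quantile normalization. Leaving out single libraries gave -1.10 to 0.026 for Hoxc13, -0.69 to 0.25 for Msx1, -0.10 to 0.017 for Gata3 and -0.10 to 0.32 for Foxq1. For N-IKKa against WT without the growing-hair set, Msx1 was -0.28 and Gata3 -0.014. For N-IKKa against C-IKKa without it, Msx1 was -0.58, Lef1 -0.63 and Foxq1 -0.23, and with it as a term Msx1 was -0.18 and Lef1 -0.19. Apart from the term itself and the sets of libraries left out, the cause was not tested.

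Among the other 12 libraries, Lef1 passed at 1.41 with sex as a covariate, and leaving out single libraries gave 1.10 to 1.51. Both kinds of fit were added after the data were seen. The number of genes separating the growing-hair set was 6 to 7 when 1 library was left out, with 7 without C-IKKa 17. The median difference of Foxe1 was 6.65 and 3.45 with pseudocounts of 0.5 and 5. Calls over all genes for C-IKKa against WT (61) were 38 with the filter at 50, 151 by DESeq2, 160 with the hair shaft covariate, 163 without the growing-hair set, 145 with it as a term and 33 to 73 without single libraries (33 without C-IKKa 13 or 16, 35 without C-IKKa 17, 40 without C-IKKa 18). For N-IKKa against C-IKKa (76) these were 47, 188, 158, 51, 123 and 39 to 103. For N-IKKa against WT (1) they ran from 0 to 2. Depth limits the low values: in the other 12 libraries Foxe1 lay below 3 counts throughout, and Shh had a median below 3 counts and a highest value of 74.1.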
